A study of Mus musculus with 24 samples.

Results

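Fetal calf serum was compared with no serum in LPS-stimulated mouse macrophages, on 6 arrays of a series of 24. The 6 were chosen by their labels alone: 3 arrays titled Calf LPS and 3 titled No Serum LPS, from replicate experiments G, H and I. All were bone marrow-derived macrophages (BMDM, macrophages grown in culture from marrow cells) of strain C57Bl/6, kept overnight in medium, washed, and then given 25 ng/ml lipopolysaccharide (LPS) for 4 h in medium with 5% fetal calf serum or with none. The serum had been heated at 56 °C for 30 min, which inactivates complement. Matched arrays of the same experiments without LPS (Calf Control and No Serum Control, 3 each) carried the same media, and mouse and human serum at 5% with LPS gave 3 arrays each. The labels do not say whether the experiments used separate mice, so p-values measure the spread between these experiments. In bulk samples a change in the share of responding cells and a change in RNA per cell cannot be told apart.

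LPS is a cell wall component of Gram-negative bacteria that macrophages sense through Tlr4 with the co-receptors Cd14 and Ly96, after which NF-kappaB, AP-1 and interferon regulatory factors turn on cytokine and chemokine genes. Serum brings growth factors, lipids, hormones, binding proteins and amino acids to the medium. Cells short of amino acids, or with other stresses that phosphorylate the translation factor eIF2, make the transcription factor Atf4, which raises amino acid transporters, aminoacyl-tRNA synthetases and biosynthetic enzymes in what is called the integrated stress response.

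Values are deposited log2 expression values of 1 probe set per gene, and differences are calf serum minus no serum on that scale, with the standard error (SE) of a limma model over all 24 arrays and Benjamini-Hochberg adjusted p over 11785 genes tested. The cells carried macrophage markers in both groups: the mean of 17 macrophage identity genes lay between 11.72 and 11.78 in the calf arrays and between 11.64 and 11.65 in the others. All 17 passed the filter, a log2 value above 5.08 on at least 3 of the 24 arrays. Of these, 4 were called higher and 1 lower in calf serum (adjusted p under 0.05 by limma), 29.4% against 10.9% of all genes. Among markers of 7 other cell types, 29 of 73 genes passed the filter and none was called. The mean of the neutrophil markers, the highest of these lists, lay between 5.50 and 5.65 in the calf arrays and between 5.39 and 5.63 in the others. That of the dendritic cell markers lay between 5.16 and 5.49 and between 5.28 and 5.39, and that of the mast cell and basophil markers, the lowest, between 3.89 and 3.92 and between 3.895 and 3.997. The array labelled Calf LPS H stood apart from its group. It correlated at 0.983 with each of the other calf arrays, which correlated at 0.988 with each other, and limma gave it a weight of 0.485, the lowest of the 24. It lay more than 1 log2 unit below the mean of experiments G and I for 211 genes and above it for 94, against 79 and 94 for the no-serum array of experiment H. The main counts and some of the differences are therefore also given without it. Of 165 called genes chosen for naming 122 kept their call without it, and all 165 kept their sign. Many differences were smaller without it, such as those of Sesn2 (-1.98 and then -1.49) and Plat (-2.20 and then -1.77). Others, such as that of Il33 (2.20 and then 2.27), were larger.

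With LPS, 589 genes (5% of those tested) were higher and 690 (5.85%) lower in calf serum than in no serum, where the median of all genes was 0.03. Without the array Calf LPS H, 361 were higher and 462 lower, and 754 of the 1279 calls remained. Of the 1279 genes, 1272 moved the same way in all 3 experiments, and the groups did not overlap for 1241. Over all genes tested the groups did not overlap for 25.9%. The lower genes went further: 146 fell by more than 1 log2 unit and 15 by more than 2, while 62 rose by more than 1 and 2 by more than 2. Genes are named here by size among those with 1 sign in the 3 experiments, groups that did not overlap and a name other than a predicted gene's, so sign and separation are set by the choice. The largest fall passed over was that of the predicted gene Gm13889 (-3.37 ± 0.28, adjusted p = 2.1e-08). By this rule the 15 largest falls were Csf2, Il23a, Gem, Sele, Trib3, Ddit4, Dlc1, Ifnb1, Plat, Socs2, Gadd45a, Zbtb10, Il12b, Aldh1l2 and Sesn2. The 15 largest rises by the same rule were Lipg, Il33, Ccl8, Zfp939, Cyth4, Mfsd9, Gpr31b, Pou2f2, Tifab, Irf2bpl, Cnn3, Ccnd3, Bcl6, Mcf2l and Fgl2. Without Calf LPS H, 29 of these 30 kept their call. The exception was Mcf2l (1.40 ± 0.35, adjusted p = 0.0114, and 1.28 with adjusted p = 0.058 without that array), which also lost its call without Calf LPS G or No Serum LPS H. Irf2bpl and the transcription factor gene Pou2f2 rest on 1 of their probe sets: with the median over a gene's probe sets they differed by 0.01 and 0.46 (adjusted p = 0.99 and 0.076), against 1.49 and 1.52 here.

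Beyond cytokines and amino acid genes, the largest falls held genes of varied roles. Gem, a small GTPase that LPS raised by 5.77 ± 0.31 in no serum, read 10.15, 10.61 and 10.26 there and 8.04, 7.45 and 7.83 in calf serum (-2.57 ± 0.31, adjusted p = 4.22e-06). Dlc1 fell by 2.23 ± 0.39 (adjusted p = 0.000505) to a calf mean of 4.48, below the filter value. Zbtb10, a zinc finger protein, fell from 8.77, 9.08 and 9.02 to 7.09, 6.32 and 7.36 (-2.04 ± 0.26, adjusted p = 7.66e-06). Among the rises, Cyth4, an exchange factor for Arf GTPases of blood cells, read 6.69, 6.44 and 6.23 in no serum and 7.62, 8.39 and 8.12 in calf serum (1.59 ± 0.19, adjusted p = 3.37e-06). Gpr31b, a receptor gene, rose by 1.54 ± 0.22 (adjusted p = 3.87e-05), and Tifab, a regulator of Toll-like receptor signalling, by 1.51 ± 0.28 (adjusted p = 0.000872).

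**Figure D1:**
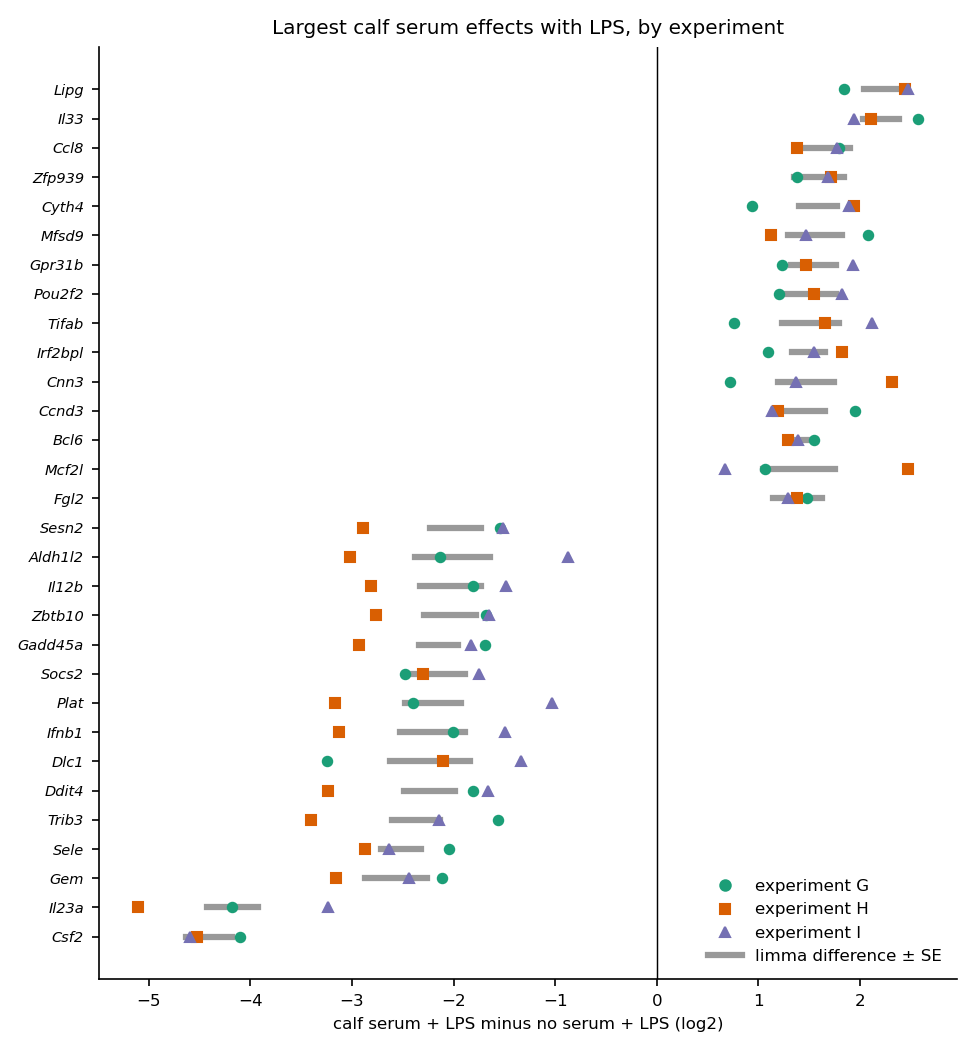
Calf serum minus no serum with LPS (log2) in experiments G, H and I for 15 rises and 15 falls, chosen for their size among named genes with 1 sign in all experiments and groups that did not overlap. Symbols are the difference within each experiment and grey bars the limma difference ± SE. Among the falls experiment H lies lowest for most genes.

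The largest differences were in cytokine genes. Csf2, which encodes the macrophage and granulocyte growth factor GM-CSF, read 9.62, 8.90 and 9.42 with LPS in no serum in experiments G, H and I. In calf serum it read 5.51, 4.38 and 4.83. All calf values lay more than 3 units below all no-serum values, a difference of -4.41 ± 0.22 (adjusted p = 7.53e-12), or 21.2-fold. Il23a, the specific subunit of interleukin-23, read 9.55, 9.67 and 8.79 in no serum and 5.37, 4.56 and 5.56 in calf serum. It was 18-fold lower (-4.17 ± 0.25, adjusted p = 1.12e-10). The calf means of both genes, 4.91 and 5.16, lay near the filter value, so the size of these folds depends on how background was treated. LPS still raised both in calf serum, by 1.21 ± 0.22 and 1.64 ± 0.25, against 5.40 ± 0.22 and 6.02 ± 0.25 in no serum.

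Il12b encodes the subunit that interleukin-12 and interleukin-23 share. It read 10.79, 10.79 and 10.72 in no serum, within 0.1 unit of each other, and 8.99, 7.98 and 9.24 in calf serum, where Calf LPS H was lowest. The difference was -2.03 ± 0.30 (adjusted p = 6.7e-05), and -1.65 without that array (adjusted p = 0.000793). Ifnb1, the type I interferon that macrophages secrete after LPS, read 9.68, 10.87 and 9.997 in no serum and 7.68, 7.74 and 8.51 in calf serum, a fall of 2.21 ± 0.32 (adjusted p = 4.94e-05). Tnf, the early inflammatory cytokine, fell less, from 12.66, 12.62 and 12.57 to 12.02, 11.89 and 12.11 (-0.61 ± 0.09, adjusted p = 7.27e-05). Tnfsf9, the ligand of the co-stimulatory receptor 4-1BB, fell by 1.55 ± 0.16 (adjusted p = 5.5e-07). Not all cytokines moved: Il6 differed by -0.29 ± 0.18 (adjusted p = 0.353) and Il1b by -0.14 ± 0.16 (adjusted p = 0.668).

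Cytokines that rose were fewer. Il33, a cytokine of the interleukin-1 family, read 2.63, 2.997 and 3.47 in no serum and 5.20, 5.10 and 5.41 in calf serum (2.20 ± 0.18, adjusted p = 1.8e-08). The no-serum values all lay below the filter value. Il10, which restrains macrophage activation, read 6.77, 7.53 and 7.30 and then 8.44, 8.35 and 7.80 (0.998 ± 0.22, adjusted p = 0.00352). That call was lost without experiment G (0.66, adjusted p = 0.113). Over the 19 inflammatory cytokines tested, 7 were lower and 2 higher (47.4% called, against 10.9% of all genes). Their median was -0.38, and 5 were lower without Calf LPS H. The 2 that left, Il12a (-1.0 ± 0.26) and Csf1 (-0.59 ± 0.14), are a subunit of interleukin-12 and the macrophage growth factor.

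Of 23 chemokines tested 3 were lower, 2 higher and 18 not called (21.7% called, against 10.9% of all genes). The neutrophil attractants Cxcl1 and Cxcl2 fell by 0.82 ± 0.15 (adjusted p = 0.000566) and 0.87 ± 0.11 (adjusted p = 7.03e-06). Cxcl3 was called lower too (-1.12 ± 0.29), but lost its call without Calf LPS H or No Serum LPS G. The monocyte attractant Ccl8 read 6.10, 6.05 and 5.83 in no serum and 7.89, 7.42 and 7.60 in calf serum (1.65 ± 0.25, adjusted p = 8.12e-05). Ccl7, another monocyte attractant, rose by 1.36 ± 0.29 (adjusted p = 0.0026). Cxcl10, an interferon target, differed by 0.00 ± 0.22. Of 41 genes of the interferon response 1 was lower and 1 higher (4.88% against 10.9% of all genes), and the lower one was Ifnb1 itself.

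**Figure D2:**
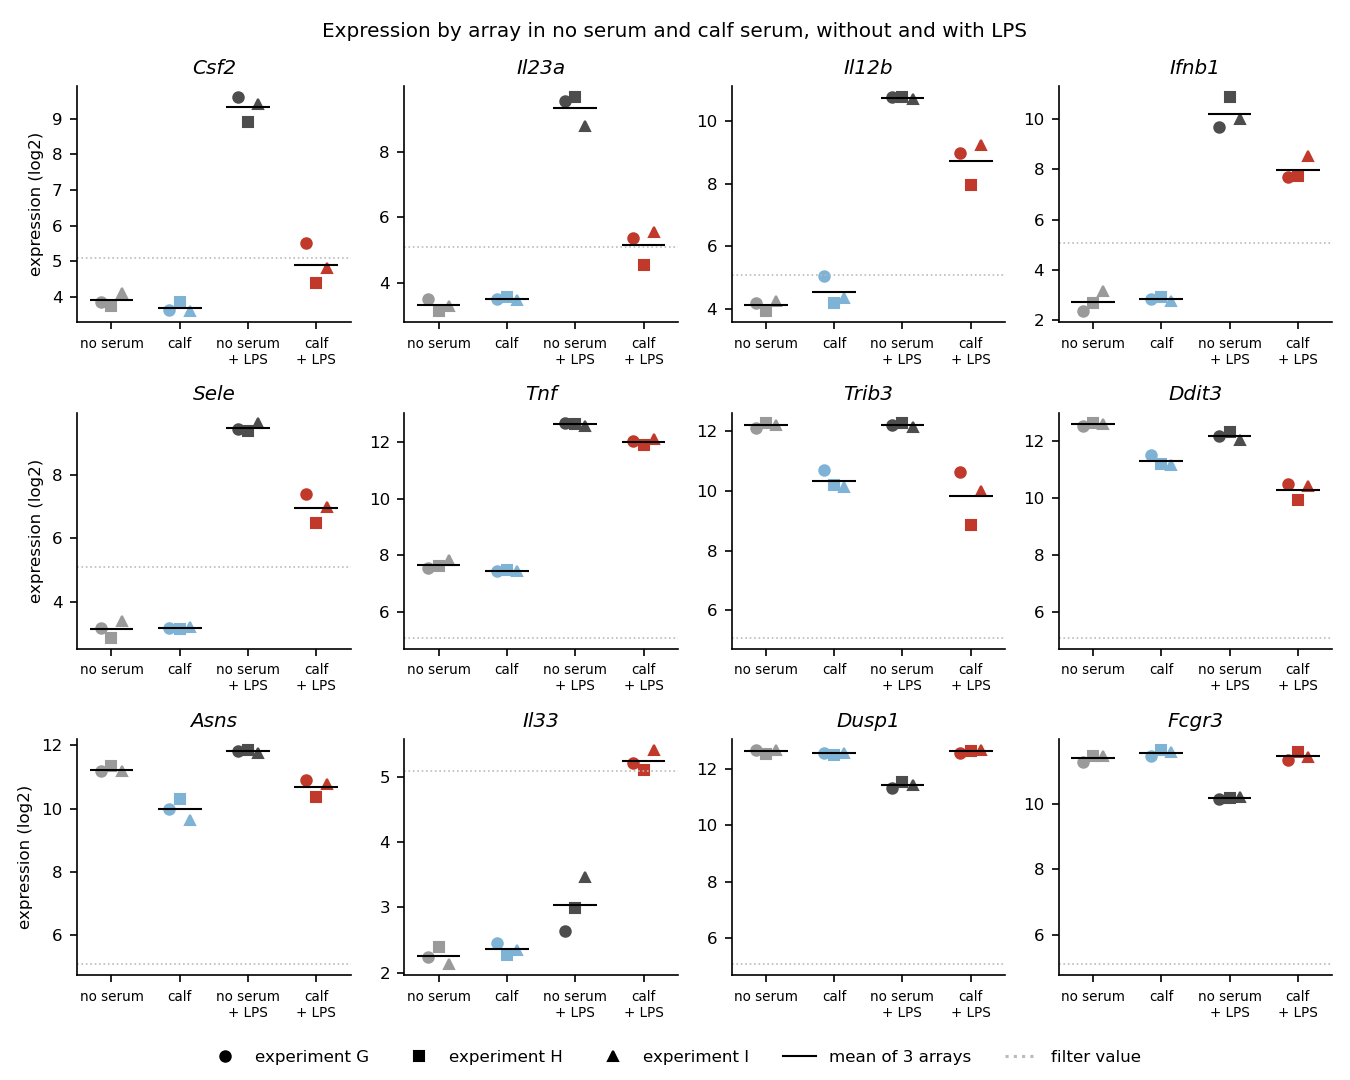
Deposited log2 values of 12 genes on each array in no serum and calf serum, without and with LPS. Symbols mark experiments G, H and I, black lines the mean of 3 arrays, and the dotted line the filter value of 5.08. With LPS, the calf values of Csf2, Il23a, Il12b, Ifnb1, Sele, Tnf, Trib3, Ddit3 and Asns lie below all no-serum values, and those of Il33, Dusp1 and Fcgr3 above them.

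Among 30 effector and acute phase genes of the LPS response 6 were lower and 1 higher (23.3% called, against 10.9% of all genes). Without Calf LPS H 6 were lower and none higher. Serpinb2, an inhibitor of plasminogen activators, fell by 1.83 ± 0.31 (adjusted p = 0.000275), and Ptx3, a soluble pattern recognition protein, by 1.36 ± 0.18 (adjusted p = 1.29e-05). Plat, the tissue plasminogen activator, read 7.59, 7.32 and 6.72 in no serum and 5.19, 4.16 and 5.69 in calf serum (-2.20 ± 0.28, adjusted p = 7.58e-06). Sele, known as an endothelial adhesion molecule, fell from 9.43, 9.36 and 9.61 to 7.38, 6.49 and 6.98 (-2.52 ± 0.20, adjusted p = 9.38e-09). Nos2, the inducible nitric oxide synthase, differed by 0.43 ± 0.20 (adjusted p = 0.202), and Ptgs2, the inducible prostaglandin synthase, by -0.06 ± 0.28 (adjusted p = 0.941). Lipg, endothelial lipase, had the largest rise of all genes: 7.55, 7.49 and 7.50 in no serum against 9.40, 9.93 and 9.97 in calf serum (2.25 ± 0.21, adjusted p = 1.59e-07). Adamts4, a proteoglycan-cleaving protease, rose by 1.15 ± 0.20 (adjusted p = 0.000462).

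Receptors and brakes of the LPS response were measured on the same arrays. Tlr4 itself fell by 0.47 ± 0.07 (adjusted p = 0.00011), from 11.24, 11.17 and 11.15 to 10.77, 10.56 and 10.83. Its partners Cd14 (-0.06 ± 0.08) and Ly96 (0.11 ± 0.15) were not called, with adjusted p of 0.702 and 0.752. Of 28 genes of negative feedback 5 were lower and 3 higher (28.6% called, against 10.9% of all genes). Without Calf LPS H 4 were lower and 2 higher. Dusp1, a phosphatase that switches off the kinases p38 and JNK, read 11.32, 11.52 and 11.43 in no serum and 12.56, 12.64 and 12.65 in calf serum (1.19 ± 0.06, adjusted p = 7.53e-12). LPS had lowered Dusp1 in no serum (-1.19 ± 0.06), whereas in calf serum it differed by 0.08 ± 0.06, so the higher value with calf serum is a level near that without LPS. Bcl6, a repressor of inflammatory genes, had the same shape: LPS lowered it by 1.21 in no serum, and with LPS it was 1.41 ± 0.09 higher in calf serum (adjusted p = 1.63e-10). Socs2, a suppressor of cytokine receptor signalling, fell by 2.18 ± 0.29 (adjusted p = 1.95e-05).

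Fc receptor genes were among those that rose. Fcgr3, which binds immune complexes, read 10.16, 10.19 and 10.22 in no serum and 11.37, 11.60 and 11.44 in calf serum (1.28 ± 0.08, adjusted p = 1.36e-10). Of 18 Fc receptor and complement genes 4 were higher and 1 lower (27.8% called, against 10.9% of all genes). Without Calf LPS H 3 were higher. Fcgr3 kept its call there. The Fc receptor genes Fcgr4 and Fcgr1, called higher by 0.72 and 0.47, lost theirs (adjusted p = 0.074 and 0.0502 by limma). Among 34 G protein-coupled receptors 5 were higher and 5 lower (29.4% called), but 3 lower without Calf LPS H and 2 at the lowest of the single-array omissions. S1pr2, a receptor for the serum lipid sphingosine-1-phosphate, rose by 1.18 ± 0.12 (adjusted p = 5.94e-07), and Ccr1, a chemokine receptor, by 0.85 ± 0.17 (adjusted p = 0.00138). Ptger2, a receptor for prostaglandin E2, fell from 8.07, 8.21 and 8.38 to 7.38, 6.54 and 6.26 (-1.49 ± 0.22, adjusted p = 6.39e-05), and the chemokine receptor Cxcr4 by 0.84 ± 0.13 (adjusted p = 0.000118).

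Amino acid genes formed the largest block of falls. Of 23 genes of the integrated stress response 14 were lower and none higher (60.9% called, against 10.9% of all genes), with a median of -1.12. Of 19 aminoacyl-tRNA synthetases 12 were lower and 1 higher, of 21 amino acid transporters 10 were lower and none higher, and of 12 serine and one-carbon enzymes 5 were lower and none higher. Their medians were -0.59, -0.24 and -0.45, and 68.4%, 47.6% and 41.7% of them were called. Without Calf LPS H, 14, 9, 8 and 4 were lower in these 4 lists, in that order. Calf LPS H was itself low in this response: over the 23 genes its median distance from the mean of experiments G and I was -0.41, against 0.05 for the no-serum array of experiment H, and its part in the result beyond these counts was not tested.

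Trib3, a pseudokinase that Atf4 induces, read 12.19, 12.26 and 12.14 in no serum and 10.62, 8.85 and 10.002 in calf serum. The lowest calf value was that of experiment H, and the difference was -2.37 ± 0.24 (adjusted p = 4.6e-07), or -1.88 without it (adjusted p = 9.57e-09). Ddit3, the stress transcription factor CHOP, read 12.19, 12.31 and 12.05 and then 10.51, 9.94 and 10.43 (-1.89 ± 0.11, adjusted p = 1.12e-10). Sesn2, a leucine sensor of the mTORC1 pathway, fell by 1.98 ± 0.25 (adjusted p = 7.43e-06), and Ddit4, an mTORC1 inhibitor, from 8.45, 8.95 and 8.38 to 6.65, 5.72 and 6.71 (-2.24 ± 0.25, adjusted p = 2.05e-06). Asns, asparagine synthetase, read 11.80, 11.85 and 11.75 in no serum and 10.89, 10.36 and 10.77 in calf serum (-1.13 ± 0.13, adjusted p = 2e-06). Chac1, which degrades glutathione, and Nupr1, a stress-induced chromatin protein, fell by 1.87 ± 0.37 and 0.44 ± 0.09 (adjusted p = 0.00166 and 0.0019). Both lost their call without experiment H (adjusted p = 0.0627 and 0.0556). Atf4 mRNA itself differed by -0.25 and was not called (adjusted p = 0.353). Its control is known to be largely translational, and Atf4 protein was not measured on these arrays, so a change in it was not tested.

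The transporters that fell carry several classes of amino acid. Slc7a5, the large neutral amino acid carrier, read 10.10, 9.90 and 10.15 in no serum and 8.99, 8.02 and 8.86 in calf serum (-1.42 ± 0.19, adjusted p = 1.84e-05). Slc38a2, which takes up small neutral amino acids, fell by 1.51 ± 0.15 (adjusted p = 5.28e-07), the cationic carrier Slc7a1 by 1.04 ± 0.13 (adjusted p = 7.43e-06) and the cystine carrier Slc7a11 by 1.15 ± 0.18 (adjusted p = 0.00013). The synthetases, which load amino acids onto tRNAs, fell less but with small errors: the isoleucyl enzyme Iars by 0.95 ± 0.14, the glutamyl-prolyl enzyme Eprs by 0.89 ± 0.10 and the leucyl enzyme Lars by 0.74 ± 0.09 (adjusted p = 7.78e-05, 1.12e-06 and 2.72e-06). The 1 synthetase gene that was higher was Farsa (0.47), which encodes a subunit of the phenylalanyl enzyme, and its call was lost without Calf LPS H. In one-carbon metabolism, the mitochondrial enzymes Shmt2 and Mthfd2 fell by 1.38 ± 0.20 and 0.87 ± 0.14 (adjusted p = 5.12e-05 and 0.000142).

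The composite element that Atf4 and C/EBP proteins bind, TGATGNAA, was searched on both strands of the RefSeq promoters of GRCm38.p6, which run from 250 bases before to 50 after the start site. Of the 40 genes of these 4 lists that fell, 30 had a promoter in the table and 10 held the letters (33.3%), against 5 of 29 of the list genes that did not (17.2%) and 2.79% of 9543 genes tested with a promoter. Of all lower genes 5.85% held them, and of all higher genes 2.89%. Among the synthetases, the list with the largest share called, 4 of 8 lower genes with a promoter did, and 1 of 4 of those not lower. Among the one-carbon enzymes 0 of 4 lower genes and 0 of 7 of those not lower did. The upstream matches in synthetase genes are shown with flanking bases, then those in 4 genes of the stress response that were picked after their values were seen. Capitals mark the element on either strand. A match describes the letters in this window and is not a measured binding site.
Aars (chr8:111033714-111033753, plus strand): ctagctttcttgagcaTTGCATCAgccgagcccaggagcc
Gars (chr6:55037955-55037994, plus strand): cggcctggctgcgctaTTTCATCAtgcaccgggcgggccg
Tars (chr15:11399659-11399689, minus strand): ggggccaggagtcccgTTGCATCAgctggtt
Asns (chr6:7693210-7693248, minus strand): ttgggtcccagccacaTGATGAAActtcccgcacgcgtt
Chac1 (chr2:119351033-119351072, plus strand): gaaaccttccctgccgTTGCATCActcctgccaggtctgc
Nupr1 (chr7:126625557-126625596, minus strand): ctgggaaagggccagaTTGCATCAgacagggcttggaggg
Slc7a11 (chr3:50443656-50443695, minus strand): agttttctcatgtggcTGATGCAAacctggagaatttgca
In calf serum with LPS these genes differed from no serum by -0.63, -0.61, -0.60, -1.13, -1.87, -0.44 and -1.15, in that order. The first element of Slc7a11 starts 66 bases before the start site and is followed by another that starts 47 bases before it on the other strand. For comparison, the AP-1 letters TGANTCA, also on both strands, stood in 8.41% of the promoters of lower genes, 4.74% of those of higher genes and 6.43% of those of all tested genes.

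**Figure D3:**
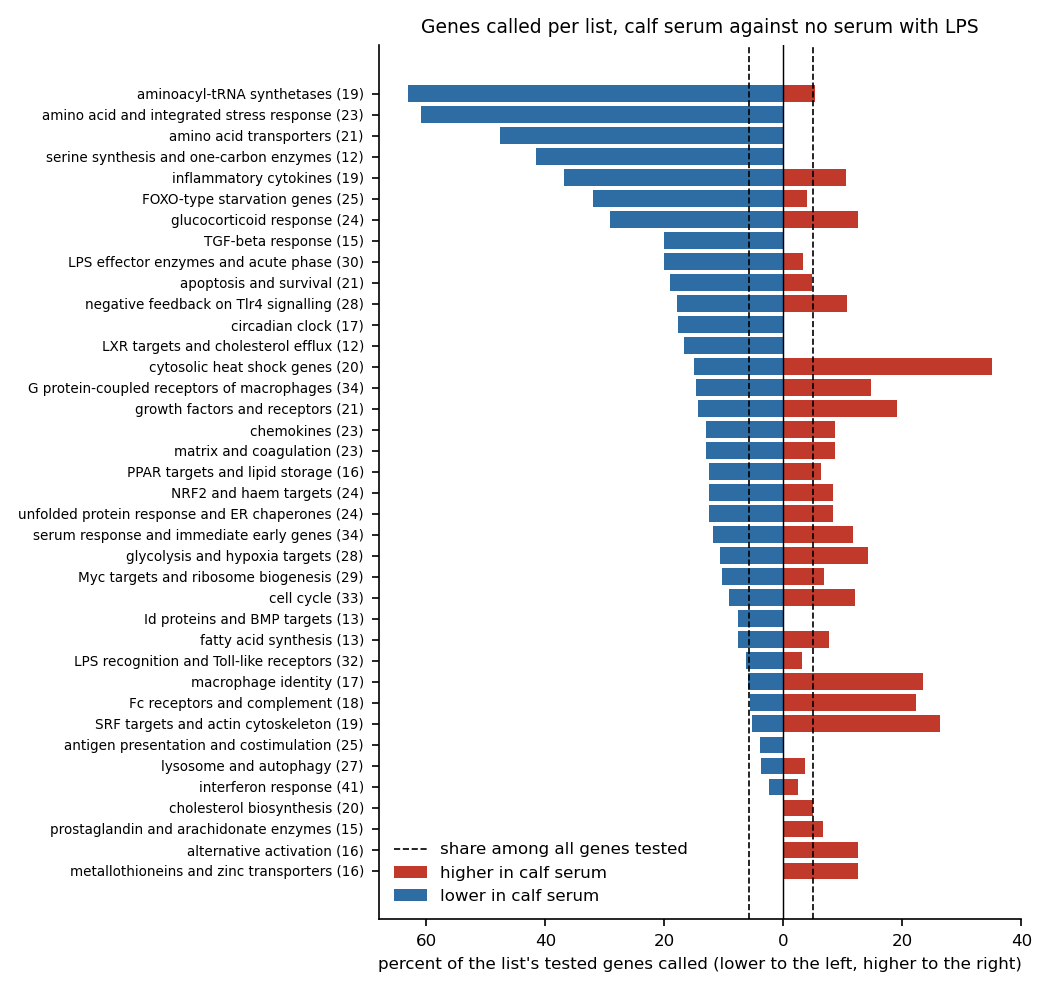
Percent of each gene list called higher (red, to the right) or lower (blue, to the left) in calf serum with LPS, for lists with at least 10 genes tested (number in brackets). Dashed lines give the share of all genes tested, 5% higher and 5.85% lower. The 4 amino acid lists have the largest shares of lower genes, and heat shock genes the largest share of higher ones.

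Genes known from the glucocorticoid response moved in both directions: of 24 tested 7 were lower, 3 higher and 14 not called (41.7% called, against 10.9% of all genes). Their median was -0.09, and 7 were lower in each fit that left out a single array. Tsc22d3, the glucocorticoid-induced leucine zipper, read 8.51, 8.44 and 8.32 in no serum and 7.07, 6.97 and 6.74 in calf serum (-1.49 ± 0.15, adjusted p = 5.42e-07). Its other probe sets gave smaller values, -0.64 (called) and -0.03 (not called, adjusted p = 0.955 by limma). The transcription factor Klf9 fell by 1.15 ± 0.19 (adjusted p = 0.000299) and the kinase Sgk1 by 1.14 ± 0.10 (adjusted p = 2.1e-08). The list does not move as one, since Dusp1 and Mertk, a receptor for the uptake of dead cells (0.86 ± 0.15), were higher and Fkbp5, a standard glucocorticoid target, differed by 0.01 ± 0.18 (adjusted p = 0.988). Genes that FOXO factors raise in starved cells were lower in 8 of 25 and higher in 1 (36% called), but lower in only 5 without Calf LPS H. They include the growth arrest gene Gadd45a (-2.15 ± 0.19, adjusted p = 7.83e-08) and the regulator Tsc22d1 (-1.14 ± 0.15, adjusted p = 1.2e-05). Of 17 clock genes 3 were lower (17.6% called), led by the nuclear receptor Rora (-1.36 ± 0.21, adjusted p = 8.47e-05) and the repressor Nfil3 (-0.98 ± 0.13, adjusted p = 1.15e-05).

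Growth and cytoskeletal genes also moved in both directions. Of 19 targets of serum response factor and actin genes 5 were higher and 1 lower (31.6% called, against 10.9% of all genes). Without Calf LPS H 3 were higher. Zyx, a focal adhesion protein, read 10.28, 9.94 and 9.94 in no serum and 11.12, 11.49 and 11.33 in calf serum (1.26 ± 0.11, adjusted p = 8.09e-08), and the calponin Cnn2 rose by 1.15 ± 0.16 (adjusted p = 4.12e-05). Of 21 growth factors and their receptors 4 were higher and 3 lower (33.3% called). The lower ones were Csf2, Csf1 and the vascular growth factor gene Vegfa. The platelet-derived growth factor genes Pdgfb and Pdgfa rose by 1.28 ± 0.15 and 0.80 ± 0.13 (adjusted p = 3.1e-06 and 0.000205). The cyclins Ccnd3 and Ccnd1, which drive entry into the cell cycle, rose by 1.42 ± 0.24 and 1.05 ± 0.13 (adjusted p = 0.000238 and 8.85e-06), while Mki67, a marker of dividing cells, fell from 12.01, 12.11 and 12.15 to 11.07, 11.09 and 11.26 (-0.95 ± 0.10, adjusted p = 6.22e-07). Of 33 cell cycle genes 4 were higher and 3 lower (21.2% called), and 1 was lower without Calf LPS H.

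Among 20 cytosolic heat shock genes 7 were higher and 3 lower (50% called, against 10.9% of all genes), and 5 and none without Calf LPS H. With a whole experiment left out 1 to 4 were higher and none lower. The co-chaperone Bag3 rose by 0.95 ± 0.12 (adjusted p = 9.54e-06). The inducible Hspa1b read 8.12, 8.14 and 8.33 in no serum and 9.51, 9.41 and 9.18 in calf serum (1.17 ± 0.26, adjusted p = 0.00485), but its call was lost without experiment G or I, and its near-identical copy Hspa1a (0.88 ± 0.22) can share probes with it. In the unfolded protein response 3 of 24 genes were lower and 2 higher (20.8% called), and Herpud1, of endoplasmic reticulum degradation, fell by 1.61 ± 0.22 (adjusted p = 1.84e-05). The share of calls varied between the lipid lists. It was 15.4% of 13 fatty acid synthesis genes, 16.7% of 12 cholesterol efflux genes and 18.8% of 16 lipid storage genes, against 10.9% of all genes. Without Calf LPS H 1, 1 and 2 genes of these lists were lower and none higher. Of 20 cholesterol synthesis genes 1 was called (5% against 10.9%), Hmgcs1 of that pathway differed by 0.10 ± 0.08 (adjusted p = 0.471), and Abca1, the cholesterol exporter, fell by 0.70 ± 0.09 (adjusted p = 5.25e-06). Of 27 lysosome and autophagy genes 1 was higher and 1 lower (7.41% called).

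Whether the calf serum effect needed LPS was read from the same media without LPS, on other arrays. There 82 genes (0.696%) were higher and 267 (2.27%) lower in calf serum, 2.96% in all. The label of Calf Control H carries the array code of experiment G rather than H, and without that array 334 genes were called instead of 349. Of the 690 lower genes with LPS 139 were also lower without it, which is 20.1% of the first list and 52.1% of the second. Of the 589 higher genes 30 were also higher without it, 5.09% and 36.6%. The 2 comparisons called 8 genes in opposite directions. The effects correlated at r = 0.276 across genes, which are not replicates. The difference of the effects was called for 212 genes (1.8%) by limma, 106 in each direction (0.899% each), and 1487 had an unadjusted p under 0.05. So a call in one condition alone did not usually come with a called difference: 544 genes were lower with LPS and not called without it, and 76 of them (14%) had one.

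Genes of the amino acid lists fell without LPS too. There 17 of 23 integrated stress response genes were lower (median -0.85), 12 of 19 synthetases and 6 of 12 one-carbon enzymes, with none higher. Of all genes 2.27% were lower without LPS. Of 21 transporters 7 were lower and 2 higher, with a median of -0.10. Trib3 differed by -1.84 ± 0.24 without LPS and -2.37 ± 0.24 with it, and Asns by -1.26 ± 0.13 and -1.13 ± 0.13; for neither was the difference of effects called (adjusted p = 0.581 and 0.843). In the integrated stress response the difference of effects was called for 5 of 23 genes, against 1.8% of all genes. Nupr1 fell less with LPS, by 1.92 without it and 0.44 with it, a difference of 1.48 ± 0.13 (adjusted p = 9.85e-08). Jdp2, a transcription factor of the AP-1 group, fell by 1.91 without LPS and differed by -0.06 with it, and Cebpb, a partner of Atf4, fell by 0.63 and differed by 0.12 (adjusted p of the differences 1.83e-08 and 0.0106). Cebpg, another partner, fell further with LPS (-0.54 and -1.29, adjusted p of the difference 0.00316). So did Ddit4, with -0.53 ± 0.25 without LPS (adjusted p = 0.425) and a difference of -1.71 ± 0.36 (adjusted p = 0.0105).

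The largest cytokine effects were seen with LPS. Without it Csf2 read 3.86, 3.76 and 4.12 in no serum and 3.62, 3.87 and 3.60 in calf serum, and Il23a 3.52, 3.14 and 3.29 and 3.502, 3.57 and 3.49, all below the filter value. The differences of the effects were -4.19 ± 0.32 and -4.38 ± 0.35 (adjusted p = 1.83e-08 and 3.18e-08). Il12b (-2.44 ± 0.43, adjusted p = 0.00201), Ifnb1 (-2.33 ± 0.45, adjusted p = 0.00542) and Il33 (2.10 ± 0.26, adjusted p = 2.87e-05) differed likewise. For Tnf the difference was not called (-0.40 ± 0.13, adjusted p = 0.128). A gene below the filter value without LPS has no measurable room to fall there. In all, the difference was called for 4 of 19 inflammatory cytokines, against 1.8% of all genes. Without LPS 4 of them were lower: Csf1 fell by 1.24, Tnfsf9 fell by 0.93, Il1b fell by 0.70 and Il15 fell by 0.495, none with a called difference of effects (adjusted p = 0.101, 0.202, 0.25 and 0.477). Among chemokines Cxcl1 and Cxcl2 differed by -1.39 and -1.58 and Ccl7 by 1.37 without LPS, and of these 3 the difference of effects was called for Cxcl2 alone (adjusted p = 0.0134). Other effects were called without LPS and not with it. Id3, an inhibitor of differentiation that bone morphogenetic proteins induce, rose by 2.60 ± 0.17 without LPS and differed by 0.38 ± 0.17 with it (adjusted p = 0.159), and Ptgs2 fell by 2.01 ± 0.28 without LPS. Cxcl10 also fell without LPS, by 1.54 ± 0.22. The differences of effects were called for all 3 (adjusted p = 3.01e-06, 0.00835 and 0.00758).

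**Figure D4:**
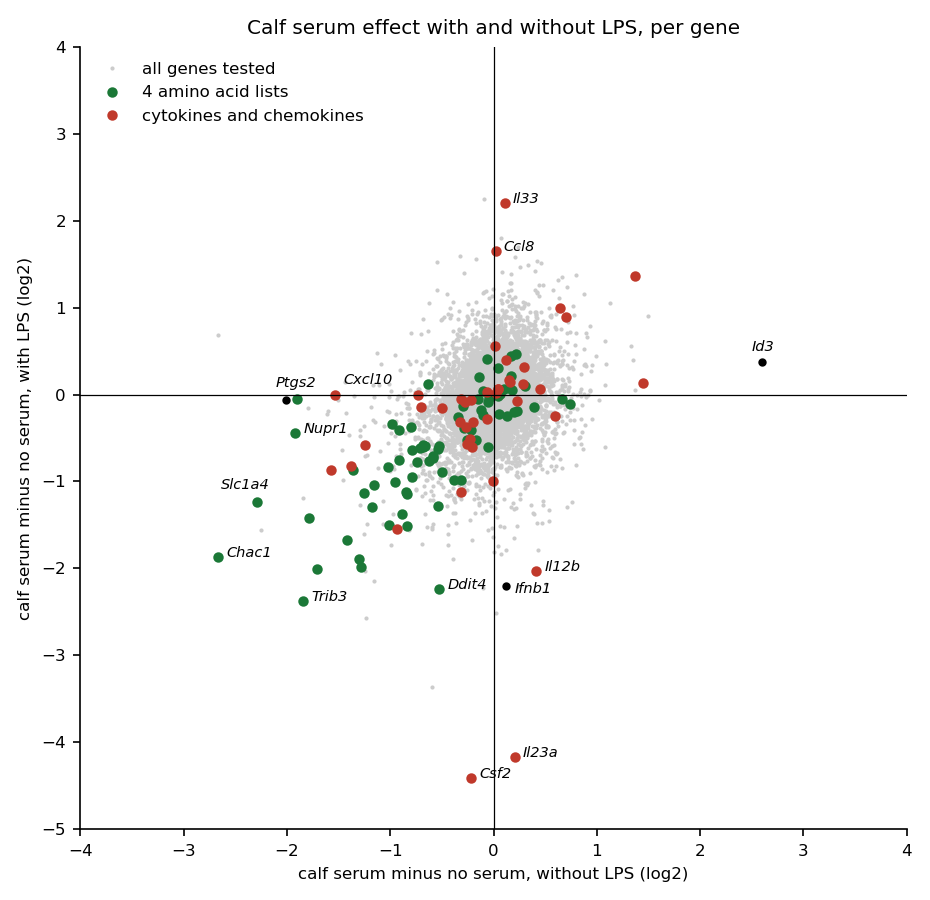
Calf serum minus no serum (log2) without LPS (x axis) and with LPS (y axis) for 11785 genes. Green points are genes of the 4 amino acid lists, red points cytokines and chemokines, and black points Id3, Ptgs2 and Ifnb1. Green points lie mostly below 0 on both axes, whereas Csf2, Il23a, Il12b and Ifnb1 lie near 0 without LPS and far below it with LPS.

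The changed genes were also sorted by what LPS does to them. In mouse and human serum, whose arrays are not part of this comparison, LPS raised 2724 of the tested genes (23.1%) and lowered 5081 (43.1%). Of the 690 genes lower in calf serum 35.4% were raised by LPS there and 44.2% lowered. Of the 589 higher genes 27.5% were raised and 55.7% lowered. Both groups thus held larger shares of LPS-raised and of LPS-lowered genes than all genes tested. The excess was widest for LPS-raised genes among the lower genes and for LPS-lowered genes among the higher ones. No test was made of these shares. Among all genes tested 66.2% were called in that LPS comparison.

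The other sera were set beside calf serum with LPS. Since they share the no-serum arrays, a difference between sera is read from the direct contrast, in which 263 genes (2.23%) were higher and 376 (3.19%) lower in calf than in mouse serum, and 306 (2.6%) higher and 433 (3.67%) lower than in human serum. Csf2 stood -4.41, -5.03 and -4.06 from no serum in calf, mouse and human serum, and calf serum differed from neither of the others by a called amount (0.62 ± 0.22 and -0.35 ± 0.22, adjusted p = 0.128 and 0.468). Il12b stood -2.03, -4.13 and -3.62 from no serum, and Tnf -0.61, -1.74 and -1.45. Calf serum left both higher than mouse serum did, by 2.10 ± 0.30 and 1.13 ± 0.09 (adjusted p = 6.74e-05 and 2.6e-08), and higher than human serum by 1.59 ± 0.30 and 0.85 ± 0.09 (adjusted p = 0.00148 and 1.73e-06). Sele did not differ by a called amount between calf and mouse serum (0.19 ± 0.20, adjusted p = 0.744) and was lower than in human serum (-1.80 ± 0.20, adjusted p = 2.34e-06). Il33 was higher in mouse and human serum than in calf serum, where calf serum differed by -2.37 ± 0.18 and -1.63 ± 0.18 (adjusted p = 2.2e-08 and 2.56e-06).

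More amino acid genes were lower in calf serum against human than against mouse serum, with the widest gap among the synthetases. Of the 23 integrated stress response genes 15 were lower in calf than in human serum and none higher, and 11 were lower and 2 higher than in mouse serum. Of the 19 synthetases 13 were lower than in human and 2 lower than in mouse serum. Of the 21 transporters 8 were lower and 1 higher than in human serum, and 7 were lower than in mouse serum. Of the 12 one-carbon enzymes 4 were lower than in human and 1 lower than in mouse serum. Of all genes 3.67% were lower than in human and 3.19% lower than in mouse serum. Trib3 stood -2.37, -0.75 and -0.05 from no serum in calf, mouse and human serum, and Asns -1.13, -0.55 and -0.08. The direct differences of calf from human serum were -2.32 ± 0.24 and -1.05 ± 0.13 (adjusted p = 1.14e-06 and 9.22e-06). Ddit4 fell in calf serum and stood at 0.36 and 0.12 in the others, with direct differences of -2.60 ± 0.25 and -2.36 ± 0.25 (adjusted p = 4.11e-07 and 1.86e-06).

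Tsc22d3, Klf9 and the prostaglandin receptor gene Ptger2 were also lower in calf serum than in both other sera. Calf serum differed from mouse serum by -1.94, -1.15 and -1.59 and from human serum by -1.23, -1.40 and -2.06 (adjusted p from 2.6e-08 to 0.000473). In the list as a whole 11 of 24 glucocorticoid genes were lower in calf than in mouse serum and 12 lower than in human serum, with 2 higher in each. Of all genes 3.19% and 3.67% were lower in these contrasts, and 2.23% and 2.6% higher. Hilpda, a lipid droplet protein, stood at -0.52 from no serum in calf serum, 1.48 in mouse and 1.60 in human serum, with direct differences of -2.0 ± 0.14 and -2.12 ± 0.14 (adjusted p = 1.26e-08 and 2.97e-09). Its fall in calf serum (adjusted p = 0.0198) lost its call without Calf LPS G, Calf LPS I or No Serum LPS H. Higher in calf serum than in both others were Lipg (1.48 against mouse and 1.03 against human serum), Fgl2, a fibrinogen-like protein with prothrombinase activity (1.29 and 1.65), Adamts4 (1.57 and 1.38) and Ccl8 (0.88 and 1.47). The adjusted p of these 8 differences ran from 1.8e-05 to 0.0379.

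**Figure D5:**
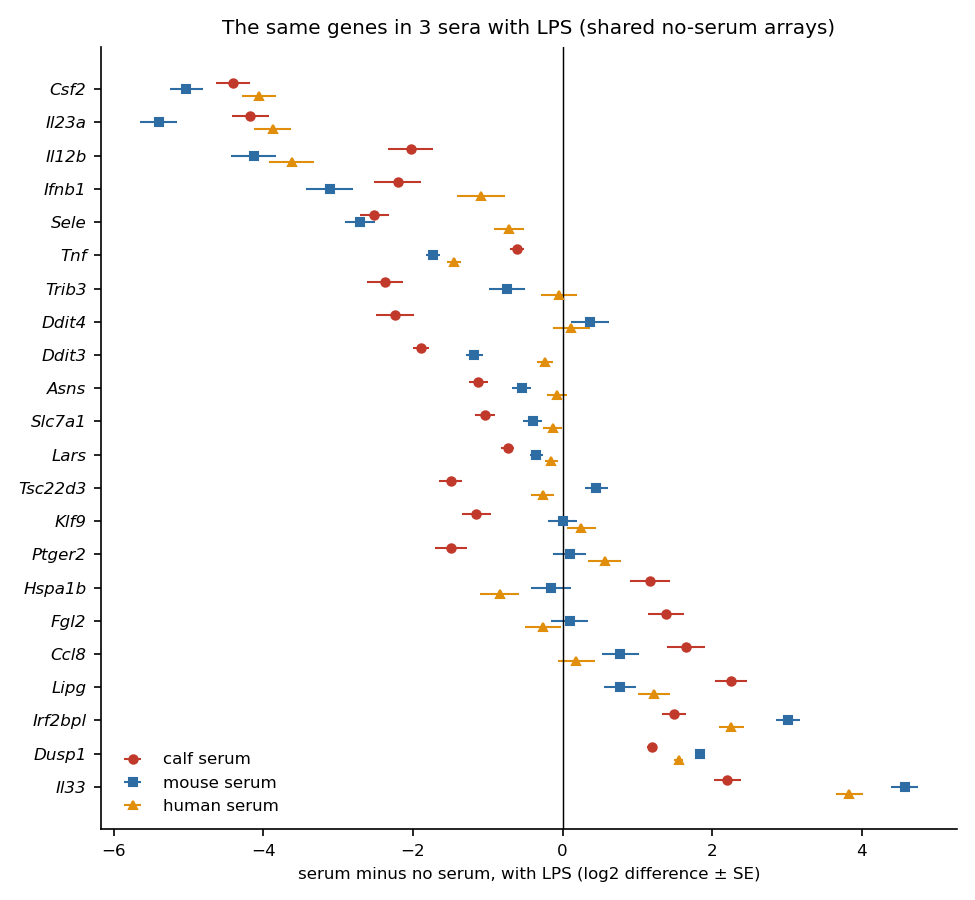
Serum minus no serum with LPS (log2 difference ± SE, limma) in calf, mouse and human serum for 22 genes; the 3 sera share the no-serum arrays, so points of a gene are not independent. Csf2 and Il23a are low in all 3 sera, whereas Trib3, Ddit4, Asns, Tsc22d3, Klf9 and Ptger2 are lowest in calf serum.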

How the data were processed

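The values are the log2 expression values the authors deposited, 1 per probe set and array, made with GCRMA and Partek per the submitters' processing notes, without settings. The log2 base was inferred from the range of the values, 1.48 to 14.84. Of 45101 probe sets 34945 named 1 gene. Probe sets above 5.08, the overall median, on 3 or more of the 24 arrays were kept, and the kept probe set with the highest mean stood for its gene, which left 11785 genes. Csf3 passed no probe set. limma 3.58.1 under R 4.3.3 fitted 1 mean per group to all 24 arrays (eBayes with trend and robust, two-sided, Benjamini-Hochberg, threshold 0.05), with n = 3 arrays per group, a number that limits the precision. Samples were grouped by their titles. The comparison, the 45 gene lists and the rule for named genes were chosen with earlier results of these data known. The rule takes the 15 largest called differences in each direction moving one way in all 3 experiments without overlap, up to 6 called genes per list, a fixed set named whatever their call, and the 8 largest differences of effects.

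The letters name the replicate experiments in the labels, so they pair the arrays by design, and the array codes in the labels follow them for all arrays used but Calf Control H, whose code is that of experiment G. Deviations of same-letter arrays from their group means correlated at 0.082, 0.028 and 0.017 for G, H and I in the calf and no-serum LPS groups. The experiment as a block is an alternative, beside other normalizations, filters, probe set summaries, array weights, the 6 arrays alone, and each array and experiment left out. Among 163 other probe sets of called named genes 99 were called the same way, 0 the opposite way and 64 had no call. Of the named genes 10 had a lower group mean below the filter value, and their folds depend on background. Promoters were matched by Entrez number. Figures were drawn by matplotlib 3.10.9, and promoters searched with pandas 2.3.3 in Python 3.11.15. The fit was tested on simulated data.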

Additional observations from a re-analysis of the deposited data

Results flagged for a closer look

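The calf serum effect with LPS differed from that without LPS, by limma's test of the difference, for 212 genes (1.8% of those tested). Of the 55 genes named for their size or fixed whatever their call, 23 were among them. That count is raised by the choice, since genes were named for large effects with LPS or for a large called difference of effects. The difference of effects (with LPS minus without, log2) was below 0 for 10: Il23a (-4.38), Csf2 (-4.19), Socs2 (-2.68), Sele (-2.54), Il12b (-2.44), Plat (-2.44), Ifnb1 (-2.33), Id3 (-2.22), Ddit4 (-1.71) and Idi1 (-0.97). It was above 0 for 13: Irf2bpl (1.15), Bcl6 (1.32), Cyth4 (1.38), Nupr1 (1.48), Cxcl10 (1.53), Ccl8 (1.63), Mfsd9 (1.73), Zfp939 (1.92), Ptgs2 (1.96), Pou2f2 (2.07), Il33 (2.10), Lipg (2.35) and Matn2 (3.35). Adjusted p of these ran from 1.83e-08 to 0.036. For Id3, Idi1, Nupr1, Cxcl10, Ptgs2 and Matn2, an extracellular matrix protein, the larger effect was the one without LPS. Irf2bpl kept neither the sign nor the call of this difference with the median over its probe sets. With 3 arrays per group no single array could be tested as an outlier.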

How the results depend on the processing

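Counts of higher and lower genes with LPS kept within 1.5 times of 589 and 690 under other normalizations, filters, probe set summaries, array weights and moderation, at 523 to 611 and 622 to 705. With the experiment as replicate block, a paired fit, they were 752 and 808, genes called without LPS 476 and genes with a called difference of effects 311; among named genes with LPS the block changed only the call of Id1, to adjusted p = 0.031 from 0.0506. Fitted on the 6 arrays compared alone, 289 were higher and 439 lower. That fit takes the spread from these arrays only, and the cause of the lower counts was not tested. Leaving out single arrays or experiments gave 215 to 582 higher and 298 to 657 lower genes, 112 to 334 called without LPS (349 with all arrays) and 50 to 249 with a called difference of effects. The lowest of the first 2 counts came without experiment H, and the other 2 without experiment I. Of 165 called named genes 82 kept their call under all 18 alternatives and 83 lost it under at least 1, while of the 16 without a call Id1 and Thbs1 were called under at least 1. With the median over probe sets 2 values changed sign: Ern1, a sensor of unfolded proteins, at 0.061 (adjusted p = 0.921), and the difference of effects of Irf2bpl at -0.14 (adjusted p = 0.943); the cause was not tested. The 3 arrays per group, and values near the filter for genes such as Csf2 and Il33, limit the folds.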

Other observations

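Several groups moved in a few members each. Of 15 genes of the TGF-beta response 3 were lower in calf serum with LPS (20% called, against 10.9% of all genes), and 5 without Calf LPS H. Tgfbr1, a receptor subunit, fell by 0.64 ± 0.08 (adjusted p = 1.01e-05) and Cdkn2b, a cell cycle inhibitor, by 1.08 ± 0.22 (adjusted p = 0.00183). Cdkn2b read 6.34, 5.94 and 6.198 in no serum and 5.47, 4.84 and 4.95 in calf serum, whereas it stood 0.06 and 0.29 from no serum in mouse and human serum. In the hypoxia list the carbonic anhydrase Car9 rose by 1.17 ± 0.21 (adjusted p = 0.000571) and Ndrg1, a stress gene, fell by 0.73 ± 0.10 (adjusted p = 1.72e-05). In ribosome biogenesis the nucleolar genes Noc4l and Gnl3 changed in opposite directions (0.43 ± 0.07 and -0.80 ± 0.12, adjusted p = 0.000214 and 7.79e-05). Spi1, the transcription factor PU.1 of macrophages, was 0.37 ± 0.09 higher in calf than in no serum (adjusted p = 0.00931) but -0.27 and -0.31 in mouse and human serum; the calf value lost its call without No Serum LPS H.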
